A study of Mus musculus with 6 samples.

Results

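The longest genes of the mouse genome were followed along their whole bodies in replication timing profiles of myeloid cells. Members were the autosomal protein-coding genes of at least 500 kb in the RefSeq annotation (GRCm38.p6, the assembly also called mm10). The rule left out 16 named genes (Lrp1b, Wwox, Fhit, Ctnna3, Exoc4, Immp2l, Naaladl2, Dlg2, Macrod2, Nckap5, Tenm4, Sgcz, Csmd1, Auts2, Fam155a and B3galt1) and 7 glutamate or GABA-A receptor genes. This gave 193 members of 20665 autosomal protein-coding genes, out of 216 that reached the length. Member length ran from 502 to 2271 kb with a median of 711 kb, 45 members exceeded 1 Mb, and together the bodies covered 157 Mb. In 155 members no other protein-coding gene lay inside the body. The rule used length and name only, and no timing value.

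The cells were mouse myeloid lines that had been immortalised with HoxB8, a homeobox factor that holds progenitors in proliferation, and selected in GM-CSF, a growth factor of granulocytes and macrophages. The labels named 3 wild-type (WT) samples and 3 samples that were Recql4 -/- Klhdc3 -/-, and all 6 shared the immortalisation and the medium. Recql4 is a helicase of replication initiation and Klhdc3 a substrate receptor of a ubiquitin ligase. Growing cultures were collected, with a division time of 15 to 18 hours and more than 25% of cells in S phase. The labels do not say whether samples of a genotype were separate lines, clones or cultures.

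The 6 value columns of each deposited table carried no names. They are called profiles A to F in column order, no profile was tied to a genotype, and no genotypes were compared. A pair of quantities was available per window of about 10 kb. The raw level is a normalised DNA copy level near 2 for diploid DNA, and the timing score is its smoothed form, scaled so that the autosomal windows of a profile average 0 with unit SD. A higher score stands for earlier replication. A gene's value was the mean over the windows that lie wholly inside it and carry a value in each profile, and 177 members had at least 20 such windows (median 66, from 23 to 217). Read depth per window is unknown here, so values have no counting interval. Spread is given as the range over the 6 profiles.

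Replication proceeds through S phase in a set order: DNA rich in active genes and open chromatin is copied early, and DNA at the nuclear lamina is copied late. Genes over 500 kb are mostly genes of neurons that encode adhesion proteins, channels and synaptic scaffolds, and a polymerase needs many hours to cross one. Such genes hold few origins when they replicate late, and long transcribed genes of this kind are where common fragile sites have been mapped. In a growing, unsorted culture, early DNA is present in more copies than late DNA, which is what the raw level measures.

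The starts of the earliest and latest members show what lies at the 5′ end of genes at either end of the timing range. Each sequence is the RefSeq (GRCm38.p6) stretch from 250 bases before to 50 bases after the annotated start, read 5′ to 3′ on the strand of the gene, with each CG pair in capitals, since promoters with many CG pairs are often active in many cell types. Lpp (chr16:24393100-24393399, plus strand) and Dock2 (chr11:34783856-34784155, minus strand) were the earliest members. Skint5 (chr4:113999454-113999753, minus strand) and Lrrc4c (chr2:96317919-96318218, plus strand) were the latest.
Lpp: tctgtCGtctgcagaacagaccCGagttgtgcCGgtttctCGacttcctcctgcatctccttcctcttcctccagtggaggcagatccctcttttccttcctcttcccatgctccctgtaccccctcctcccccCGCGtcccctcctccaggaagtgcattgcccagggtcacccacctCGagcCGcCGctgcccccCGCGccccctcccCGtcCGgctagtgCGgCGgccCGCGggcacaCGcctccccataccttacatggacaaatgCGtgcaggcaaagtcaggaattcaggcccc
Dock2: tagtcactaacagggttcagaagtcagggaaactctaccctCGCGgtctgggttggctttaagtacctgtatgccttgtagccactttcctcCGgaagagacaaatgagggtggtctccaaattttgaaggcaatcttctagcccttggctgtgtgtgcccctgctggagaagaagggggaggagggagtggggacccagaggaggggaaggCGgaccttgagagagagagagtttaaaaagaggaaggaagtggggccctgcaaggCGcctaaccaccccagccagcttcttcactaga
Skint5: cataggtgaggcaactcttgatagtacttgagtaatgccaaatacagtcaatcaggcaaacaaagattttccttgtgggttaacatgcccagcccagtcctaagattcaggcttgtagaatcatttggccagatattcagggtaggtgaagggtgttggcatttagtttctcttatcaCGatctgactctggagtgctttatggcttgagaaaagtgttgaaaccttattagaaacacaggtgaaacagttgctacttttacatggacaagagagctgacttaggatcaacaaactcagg
Lrrc4c: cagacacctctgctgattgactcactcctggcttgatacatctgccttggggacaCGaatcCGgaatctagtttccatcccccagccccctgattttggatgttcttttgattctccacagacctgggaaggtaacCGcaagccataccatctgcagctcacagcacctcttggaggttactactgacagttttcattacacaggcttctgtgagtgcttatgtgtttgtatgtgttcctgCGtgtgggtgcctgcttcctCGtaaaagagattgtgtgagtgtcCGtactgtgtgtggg

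These 4 starts held 19, 5, 1 and 6 CG pairs and had a GC content of 64.7%, 54.3%, 41.7% and 50%, in the same order. The window over the start scored 1.35 at Lpp, 1.45 at Dock2, -1.82 at Skint5 and -1.73 at Lrrc4c, as medians over the profiles. CG pairs (the letters CG, counted on one strand since the pair reads the same on both) did not follow this order across members. The 156 members with a RefSeq start sequence held a median of 15 CG pairs, against 14 in 16457 autosomal genes. At least 15 pairs were present in 51.3% of the members and in 48.8% of all these genes. The 30 members with a start sequence that scored above 0 in each profile had a median of 12 pairs, and the 85 that scored below 0 in each had a median of 15.

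Long genes replicated late as a group. The median gene mean over the 177 members was -0.34, with -0.40, -0.36, -0.37, -0.23, -0.32 and -0.42 in profiles A to F. D held the highest and F the lowest of these medians. Of the members, 105 (59.3%) scored below 0 in each profile, against 15.3% of the 18120 autosomal protein-coding genes with a valued window and 40.4% of 2792 autosomal tiles of 750 kb. A further 39 members (22.03%) scored above 0 in each profile, against 76.4% of all genes, and 33 changed sign among the profiles. The members were spread widely, with a 10th percentile of -1.37, quartiles of -0.92 and 0.11 and a 90th percentile of 0.57. On the raw level the member median was 1.92 (1.91 to 1.94 over the profiles), against 2.10 for all genes.

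Score went down with length in steps. Counting every window that touches a gene, so that short genes could be measured, genes under 50 kb had a median score of 0.86, genes of 50 to 200 kb 0.77 and genes of 200 to 500 kb 0.33. Members under 750 kb stood at -0.11, those of 750 kb to 1 Mb at -0.65 and those over 1 Mb at -1.05. The share below 0 in each profile was 14.7%, 13.0% and 25.0% in the shorter classes, and 47.96%, 67.6% and 78.6% in the 3 member classes. Only 3 of the 42 measured members over 1 Mb scored above 0 in each profile. The raw level followed, with class medians of 2.11, 2.10 and 2.02 below 500 kb and of 1.96, 1.88 and 1.82 among the members. Across the 177 members, length and score had a Pearson r of -0.41 and a Spearman rho of -0.37, a description over genes that share the same profiles.

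**Figure D1:**
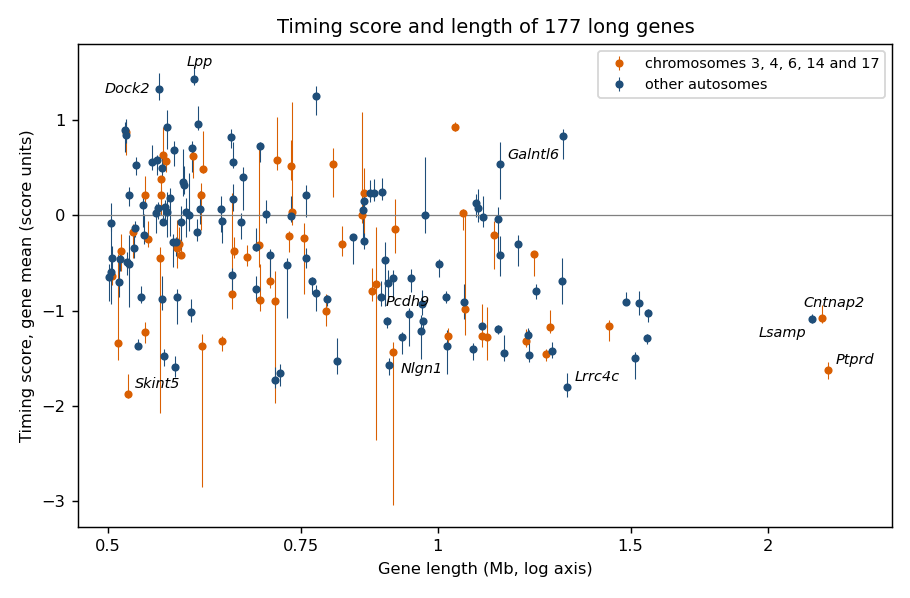
Gene mean timing score (y axis, score units) against gene length (x axis, Mb, log axis) for 177 members, with points at the median over the 6 profiles and bars from the lowest to the highest profile; orange marks chromosomes 3, 4, 6, 14 and 17, blue the other autosomes. Members over 1 Mb have a median of -1.05, and the longest bars belong to orange points such as Pcdh9 and Nlgn1.

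The members next to the length limit show what the limit cuts off. The 3 members just inside the limit were Edil3, Dock1 and Samd12, with median scores of -0.65, -0.08 and -0.59. The 3 genes just outside were Dnm3 (496 kb), Lrrc7 (495 kb) and Cacna1e (494 kb), at 0.54, 0.16 and 0.53. With 3 genes on either side these values describe single genes and no step at the limit.

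Gene-poor surroundings went with late replication of the members. The number of other protein-coding genes within 500 kb on either side and the gene mean score had a Pearson r of 0.47 and a Spearman rho of 0.58 over 177 members. The 48 members with up to 2 such genes had a median of -1.16, and 2 of them scored above 0 in each profile. The 23 members with at least 10 had a median of 0.23, and 12 scored above 0 in each. Length and surroundings overlapped, and their separate parts in the score were not tested. The same was not counted over all genes or tiles, so this relation is not read as a trait of long genes.

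The 5 earliest members by the median of the profiles were Lpp, Dock2, Arhgap26, Kalrn and Smyd3. Lpp, a LIM-domain protein of focal adhesions (chromosome 16, 24393350 to 24992578), had gene means of 1.37, 1.43, 1.42, 1.57, 1.44 and 1.44 in profiles A to F. Its raw levels were 2.18, 2.17, 2.14, 2.18, 2.17 and 2.20. All 6 profiles placed it far above the member median, with D highest on the score. Dock2, an activator of Rac that blood cells need for migration (chromosome 11, 34226815 to 34783905), scored 1.21, 1.38, 1.498, 1.42, 1.22 and 1.28. C was highest and A lowest there, a range of 0.28. Arhgap26, a GTPase-activating protein, scored 1.22, 1.36, 1.32, 1.05, 1.29 and 1.12 on chromosome 18. Kalrn, a guanine nucleotide exchange factor best known from neurons, scored 0.95, 0.92, 0.96, 1.15, 1.10 and 0.90, next to Smyd3, a lysine methyltransferase, at 0.89, 0.99, 1.11, 0.90, 0.97 and 0.69. Ranges of neighbours in this order overlapped, so that the order of neighbours within the 5 is not settled by these profiles.

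The latest member was not a neuronal gene. Skint5, of a family of immunoglobulin-domain proteins of skin and thymus (chromosome 4, 113477891 to 113999503), scored -1.92, -1.91, -1.86, -1.88, -1.66 and -1.81, at raw levels of 1.70, 1.72, 1.77, 1.71, 1.72 and 1.71. It is also one of the shorter members, at 522 kb. Lrrc4c, a postsynaptic adhesion protein that binds netrin-G (chromosome 2, 96318169 to 97631672), scored -1.66, -1.66, -1.75, -1.89, -1.85 and -1.90. Its scores were lowest in D, E and F, whereas Skint5 was lowest in A and B. Mgat4c, an N-acetylglucosaminyltransferase family gene, had a median of -1.73 (-1.81 to -1.60), and Cntnap5b, a neurexin-family adhesion gene, one of -1.66 (-1.79 to -1.56). Ptprd, a receptor phosphatase that organises synapses and the longest member at 2271 kb, stood at -1.62 (-1.72 to -1.54).

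Adhesion genes of synapses and axons lay latest among the large role groups. These lists were written with earlier results of these data known and are a description. Of 35 members with such a role, 33 were measured, with a median of -0.998 (-1.12 to -0.85 over the profiles). Of these, 25 scored below 0 throughout, 6 changed sign, and 2, Kirrel3 and Slit3, scored above 0 in each. Kirrel3, an adhesion protein of the immunoglobulin superfamily, was the earliest at 0.53, 0.63, 0.56, 0.60, 0.64 and 0.42. Slit3, a secreted guidance cue, had a median of 0.32, while the receptors of Slit proteins, Robo1 and Robo2, stood at -1.37 and -1.03. Dcc, the netrin receptor, scored between -1.18 and -1.12 in the 6 profiles. The contactin gene Cntn5 stood at -1.42, its relative Cntn4 at -1.27, and Cntnap5a and Cntnap5c at -1.57 and -0.83.

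The 5 cadherin and protocadherin members all scored below 0 in each profile, with a median of -1.28. Cdh13, a cadherin anchored to the membrane by a lipid tail, was the earliest of them at -0.47, -0.35, -0.25, -0.20, -0.21 and -0.53, and Cdh12 the latest at -1.44, -1.53, -1.44, -1.44, -1.32 and -1.25. Cdh18 and Pcdh15, a protein of the tip links of inner-ear hair cells, lay close together at -1.28 and -1.29.

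Ion channel genes and their subunits were split. Of 15 measured members, 9 scored below 0 and 3 above 0 in each profile, and 3 changed sign, with a median of -0.37. The potassium channel gene Kcnma1 was the earliest, at 0.52, 0.57, 0.59, 1.03, 0.78 and 0.48, highest in D. The calcium channel gene Cacna1c followed with a median of 0.48 and the ryanodine receptor gene Ryr3, a calcium release channel, with 0.35. Dpp10, an auxiliary subunit of potassium channels, was the latest at -1.43, -1.44, -1.45, -1.55, -1.66 and -1.71, and its relative Dpp6 stood at -0.65.

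Signalling genes ranged from the early to the latest members. Of 27 measured, 13 scored below 0 and 9 above 0 in each profile, and 5 changed sign, with a median of -0.18. Both cAMP phosphodiesterase genes of the Pde4 family were early, Pde4b at 0.88 and Pde4d at 0.84, although Pde4d is 1302 kb long. The calmodulin-dependent phosphodiesterase gene Pde1c stood at -0.41. The 5 measured receptor phosphatases were all late by their medians: Ptprm stood at -0.30, Ptprt at -0.42, Ptprk at -0.51, Ptprg at -0.89 and Ptprd at -1.62. Erbb4, a neuregulin receptor, had a median of -1.40, while its ligand gene Nrg1 stood at 0.13 and another ligand gene, Nrg3, at -1.28.

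Transcription and RNA-binding factors had a median of -0.20 over 18 measured members, with 9 below 0 and 5 above 0 in each profile and 4 of changing sign. Within the forkhead family Foxp1, which acts in lymphocytes and monocytes, scored 0.64, 0.73, 0.71, 0.53, 0.61 and 0.40, and Foxp2, known from neurons, scored -1.32, -1.34, -1.13, -1.15, -1.12 and -1.30. The scores of these relatives on chromosome 6 did not overlap, with a gap of over 1 unit in each profile. The zinc finger gene Zfp804b was the latest of the list at -1.59, and the splicing factor gene Rbfox1 stood at -0.92. Cytoskeleton, matrix, transport and secretion genes had a median of -0.21 over 26 measured, with 14 below 0 and 7 above 0 in each profile. Pard3, a scaffold of cell polarity, was their earliest at 0.57.

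Genes used in blood cells or in most cells stood apart from these groups in direction. Of 22 members, 20 were measured, with a median of 0.53 (0.44 to 0.56 over the profiles), and 13 scored above 0 in each profile, 4 below 0 in each and 3 changed sign. All but 1 of the 22 are also in another list. Elmo1, the partner of Dock proteins in activating Rac, scored 0.91, 0.85, 0.88, 0.97, 0.67 and 0.99, and Arhgap15, a Rac GTPase-activating protein, 0.91, 0.80, 0.88, 0.78, 0.71 and 0.84. The latest of the list were Inpp4b, a phosphoinositide phosphatase, at -0.95 to -0.83, Zbtb20 at -0.45 and Mecom, a factor of blood stem cells, at -0.44. These genes were also shorter, with a median of 587 kb against 974 kb for the adhesion genes, and had a median of 6 against 2 genes in the surrounding 500 kb on each side. Among members under 750 kb the 16 blood or broadly used genes had a median of 0.60 and the 8 adhesion genes one of -0.29. At 750 kb and above the medians were -0.15 over 4 genes and -1.08 over 25. Expression was not measured in these cells. The 53 measured members in no list had a median of -0.23, and 30 of them scored below 0 in each profile.

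**Figure D2:**
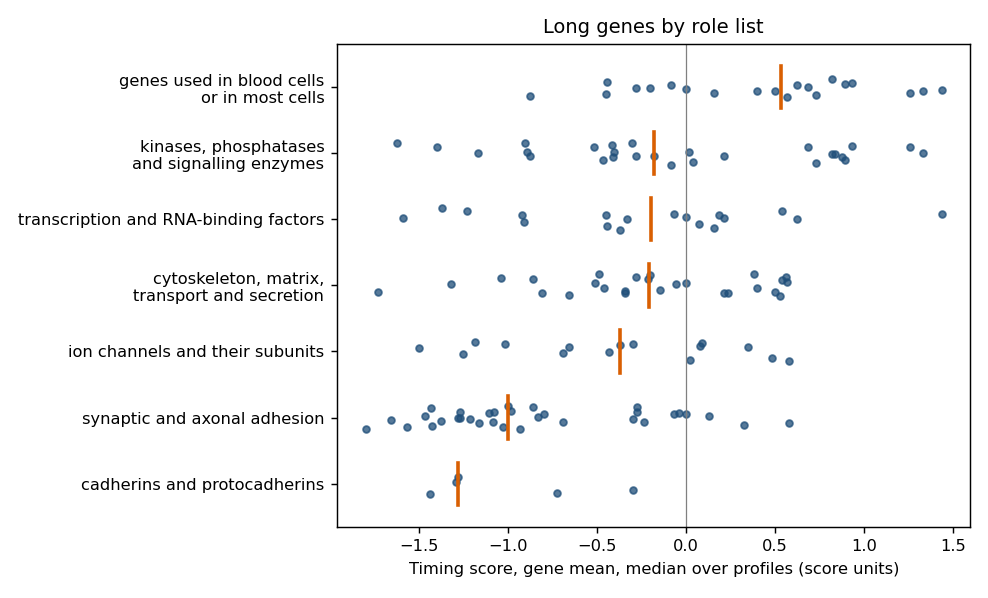
Gene mean timing score (x axis, score units, median over the 6 profiles) of measured members in each role list (rows), with a point per gene and an orange line at the list median; vertical offsets within a row only separate the points. Blood or broadly used genes have a median of 0.53 and the adhesion genes one of -0.998, and the points of these lists overlap.

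No single course from end to end prevailed among the members. Scores of the 100 kb at each end and of the central 100 kb were available for 175 members. The low-coordinate end had a median of -0.43, the centre -0.39 and the high-coordinate end -0.25. The central stretch was later than both ends in each profile in 20 members (11.4%), against 7.34% of the 750-kb tiles. It was earlier than both ends in each profile in 7 members (4%), against 8.06% of the tiles. A further 49 members climbed from low through centre to high coordinate in each profile, 45 went down in each, and 54 differed among profiles. These last courses were not counted in the tiles, so their counts are not read as a trait of long genes. Centre minus the mean of the ends had a median of -0.04, against -0.01 in the tiles, and of -0.12 on the raw level rescaled to mean 0 and SD 1. It was below 0 in each profile in 81 members (46.3%, against 40.2% of the tiles) and above 0 in each in 44 (25.1%, against 35.2%).

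Among late stretches the shares were close to those of other late DNA, with no test of the difference. Of 104 members below 0 in each profile, 11 (10.6%) had a centre later than both ends, against 10.0% of 1129 tiles below 0 in each profile. A centre earlier than both ends was found in 3 of them (2.88%), against 3.28% of these late tiles. In the 42 members over 1 Mb a later centre was found in 10 (23.8%), against 15.8% of 1653 tiles of 1.25 Mb. An earlier centre was found in 1, against 16.1% of those tiles. Restricted to late stretches, the later centre was found in 7 of 33 members over 1 Mb (21.2%) and in 20.1% of 662 tiles. Centre minus ends was -0.17 in the members over 1 Mb, -0.03 in the 1.25-Mb tiles and -0.19 in the late ones of these tiles. The restriction to late tiles was added after the data were seen.

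**Figure D3:**
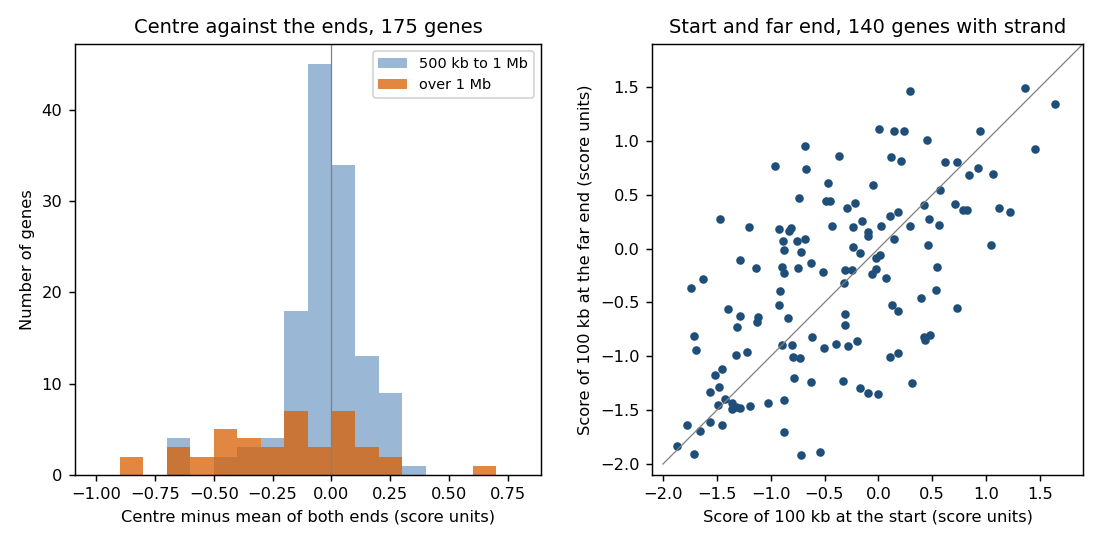
Left, number of genes (y axis) by the centre minus the mean of both ends (x axis, score units, median over the 6 profiles) for 175 members, in blue up to 1 Mb and in orange over 1 Mb; right, score of the 100 kb at the far end (y axis) against that at the start (x axis) for 140 members with a known strand, with the line of equality. The median on the left is -0.04 over all members and -0.17 in those over 1 Mb, and the points on the right lie on both sides of the line.

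The deepest sag was in Cntnap2, a neurexin-family protein that clusters potassium channels on axons and, at 2241 kb, the second longest member. Its low end scored -1.19, -1.13, -1.24, -1.24, -1.21 and -0.95, its centre -1.39, -1.28, -1.36, -0.98, -1.13 and -1.37, and its high end 0.24, 0.14, 0.30, 0.03, 0.26 and 0.16. Centre minus ends was between -0.98 (F) and -0.38 (D). In D and E the centre was not later than the low end, so that the body was a late block with an early far end and not a valley in each profile. Anks1b, a scaffold protein of neurons, was a valley in each profile, with centre minus ends of -1.02 to -0.67, a centre of -0.39 and ends of 0.12 and 0.85. Asic2, a proton-gated sodium channel (chromosome 11, 80880163 to 81968396), had nearly level ends. They scored 0.33, 0.43, 0.38, 0.53, 0.64 and 0.24 at low and 0.40, 0.43, 0.41, 0.66, 0.56 and 0.38 at high coordinate, with a centre of -0.40, -0.29, -0.14, -0.04, -0.03 and -0.40. Thus the ends were above 0 and the centre below 0 in each profile. Lsamp, an adhesion protein of the IgLON family and at 2197 kb the third longest member, was late throughout, with medians of -1.39 at the low end, -1.16 at the centre and -0.56 at the high end. Sntg1, a syntrophin, had a median difference of -0.68, and Gm37013 one of -0.67. Gm37013, Gm38666 and Gm38667 overlap on chromosome 18 and share most of their windows, as do Iqschfp and Schip1 on chromosome 3, so that these 5 members are not separate observations.

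Galntl6, a gene of the GalNAc-transferase family (chromosome 8, 57772489 to 58912531), had the highest centre relative to its ends, at 0.69, 0.66, 0.55, 0.60, 0.45 and 0.70. Its low end and centre were both early, at 0.86 and 0.80, and its high end late at -0.37, so the excess was a step near 1 end. Erc2, a scaffold of the presynaptic active zone, had a difference of 0.37, and the adhesion genes Opcml and Pcdh9 had differences of 0.26 and 0.26. In none of these 4 genes was the centre earlier than both ends in each profile. Members with that shape included Cntnap5a, Unc5d, Nbea, Nfia, Esrrg and Cdh18.

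Slopes along the members were about as steep as elsewhere on the autosomes. The least-squares slope had a median size of 0.71 score units per Mb, against 0.78 in the tiles and 0.71 in the late tiles, and late members had 0.60. It exceeded 1 unit per Mb in 70 of 177 members, against 38.1% of the tiles. The sign was the same in each profile in 136 members, 70 of them climbing and 66 going down toward high coordinates. Signs were not counted in the tiles. The difference between the latest and the earliest window of a member had a median of 0.69, from 0.05 to 2.07.

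Adarb2, a brain relative of the RNA-editing deaminases (chromosome 13, 8202526 to 8768762), had the steepest climb, at 3.22, 3.27, 3.17, 3.03, 2.87 and 2.86 units per Mb. Its start end scored -0.82, -0.78, -0.90, -0.56, -0.42 and -0.52 and its far end 0.64, 0.71, 0.54, 0.81, 0.88 and 0.77, so that the ends stood on opposite sides of 0 in each profile. Pde4b, Kcnd2, a potassium channel of dendrites, Marchf1, a ubiquitin ligase that removes MHC class II from the surface of antigen-presenting cells, and Pde1c came next with 2.76, 2.70, 2.50 and 2.43. Marchf1 climbed from -0.96 at its start through 0.13 to 0.77 at its far end, and Pde4b from 0.30 through 0.89 to 1.46. Among the steepest descents were Ryr3 (-2.50), Lama2, a laminin chain of muscle (-2.38), Pard3 (-2.33) and Celf2, a splicing regulator (-2.30). Celf2 had 0.95 at its low end, 0.20 at its centre and -0.68 at its high end, where its annotated start lies. In Ryr3 the slope differed among profiles, from -3.16 in A and -3.13 in C to -2.13 in E.

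**Figure D4:**
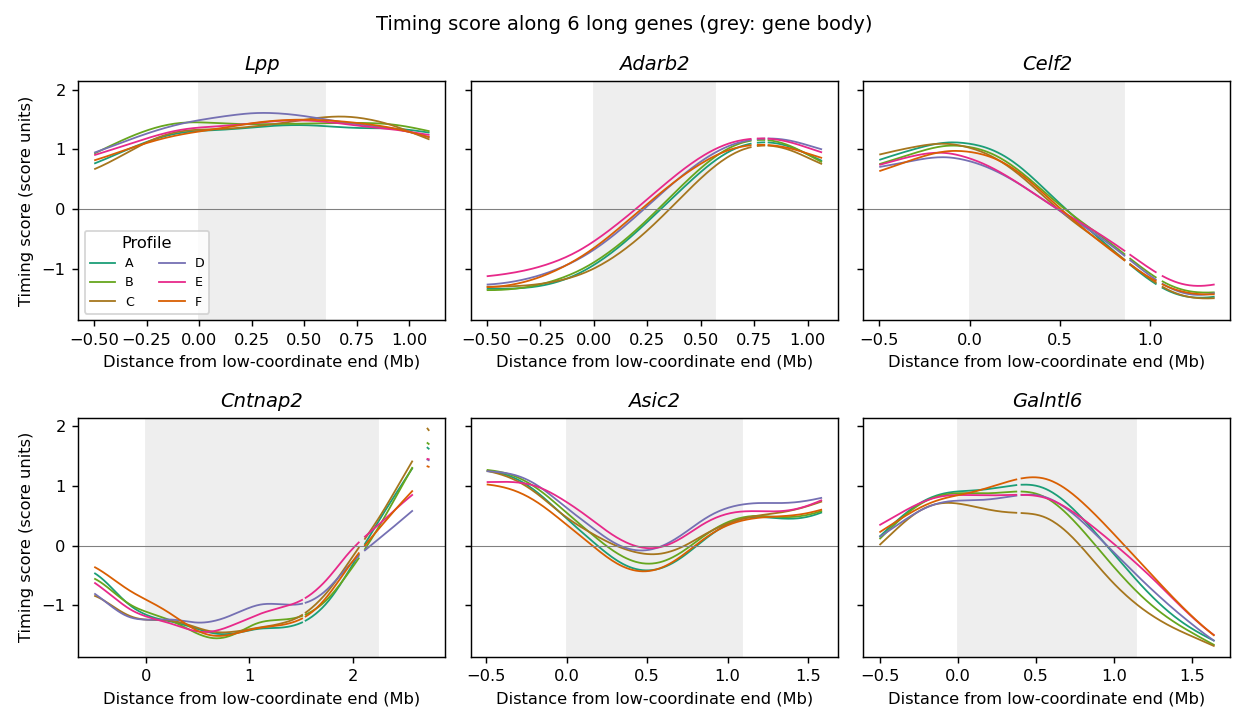
Timing score (y axis, score units) against distance from the low-coordinate end (x axis, Mb) along Lpp, Adarb2, Celf2, Cntnap2, Asic2 and Galntl6 with 500 kb on either side, with a line for each of profiles A to F and the gene body in grey. Lpp stays early, Adarb2 climbs and Celf2 goes down by more than 2 units per Mb, and Asic2 dips below 0 in its centre.

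As a group, the members were no earlier at their annotated start than at the far end. For 140 members with strand and both ends, the start had a median score of -0.38 and the far end -0.20, and start minus far end had a median of -0.05, between -0.089 without profile D and -0.028 without profile B. The start was earlier in each profile in 51 members, later in each in 62 and mixed in 27. The same counts were not made in other genes, and the difference between them was not tested. Among adhesion genes the start was earlier in each profile in 7 and later in 12 of 24, and among blood or broadly used genes the counts were 7 and 7 of 16. Robo2 was a clear case of an early start, with 0.06, -0.05, -0.23, -0.01, 0.04 and 0.00 at the start against -1.29, -1.29, -1.24, -1.54, -1.40 and -1.59 at the far end. Opcml and Erc2 also started early, with start minus far end of 1.30 and 1.23. Marchf1, Celf2, Adarb2 and Cntnap2 started late, with -1.71, -1.64, -1.41 and -1.35.

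Bodies were more often later than earlier than the DNA around them, as were late tiles of the genome. In 175 members with both flanks of 500 kb valued, the flanks had a median of -0.25, and body minus flanks had a median of -0.10. The body was later than its flanks in each profile in 88 members (50.3%) and earlier in each in 49 (28%). Of 2737 tiles of 750 kb with flanks of the same length, 42.5% were later in each profile and 38.9% earlier, with a median of -0.02. Among the 103 members below 0 in each profile, 65 (63.1%) were later than their flanks in each and 20 (19.4%) earlier, with a median of -0.20. The late tiles gave 65.5% later, 15.9% earlier and a median of -0.22, so that late members were close to other late DNA in this measure. Sntg1 (-1.18), Cntnap2 (-1.06) and Pcdh15 (-0.95) were among the members far later than their flanks, and Galntl6 (0.78) and Opcml (0.41) among those that were earlier. The latest window of a member lay in the outer 10% at either end in 121 members and in the middle 50% in 40. The earliest window lay in the outer 10% in 144 and in the middle 50% in 18. These positions were not counted in the tiles, so they are not read as a trait of long genes.

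Local timing peaks, where origins fire ahead of their surroundings, were less dense inside the members than over the autosomes. Among windows below 0 in each profile they were denser in the members. Peaks were taken on the median of the 6 profiles with a prominence of at least 0.25 units. A peak lay in 32 members and a valley in 51. Member windows held 2.32 peaks per 10 Mb against 3.84 over the autosomes, and 3.55 valleys against 3.84. Of the valued member length 65.2% scored below 0 in each profile, against 40.5% of the autosomes. In windows below 0 in each profile the density of peaks was 1.55 in the members and 1.04 over the autosomes, and that of valleys 4.22 and 6.06. Peaks inside early members reached 1.80 in Dock2, 1.49 in Lpp, 1.49 in Arhgap26 and 1.13 in Arhgap15. Peaks inside late members remained late in level, at -1.47 in Cntnap5a, -1.45 in Adgrl3, an adhesion receptor of the latrophilin family, and -1.30 in Ptprd. Peaks in Galntl6 (0.88) and Pde4d (0.98) lay inside the body, at 35.8% and 59.7% of the length from the low-coordinate end.

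The profiles differed little over most members. The range of the gene mean among the 6 profiles had a median of 0.28, which is smaller than the interquartile spread among members. It reached 0.5 units in 26 of 177 members (14.7%), against 8.13% of all genes, and 1 unit in 11, against 3.17% of all genes. Without profile D the share at 0.5 was 8.47%. These 26 were not spread evenly over the chromosomes. Earlier results of these data placed large shifts of some profiles on chromosomes 3, 4, 6, 12, 14 and 17. These chromosomes were picked on such shifts, so narrower ranges elsewhere are partly set by that choice. Of 58 measured members on chromosomes 3, 4, 6, 14 and 17, 18 reached 0.5, and the 11 that reached 1 unit were 4 on chromosome 3, 1 on chromosome 14 and 6 on chromosome 17. Of all 18120 genes 1473 reached 0.5, and of the 13393 off these chromosomes 747 did. The genes left over, all on these chromosomes, thus reached 0.5 less often than the 58 members. That difference was not tested and no such count was made at 1 unit, so it is not read as a trait of long genes. Of the 119 members elsewhere, 8 (6.72%) reached 0.5, against 5.58% of genes there, and none reached 1 unit. Over all 177 members, the lowest profile was F in 65 and C in 39, and the highest was D in 49 and E in 38. Among the 119 members away from those chromosomes, F was lowest in 42 and C in 28, and D was highest in 28 and E in 27. The same was not counted over all genes, so these counts may describe the profiles and not long genes.

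**Figure D5:**
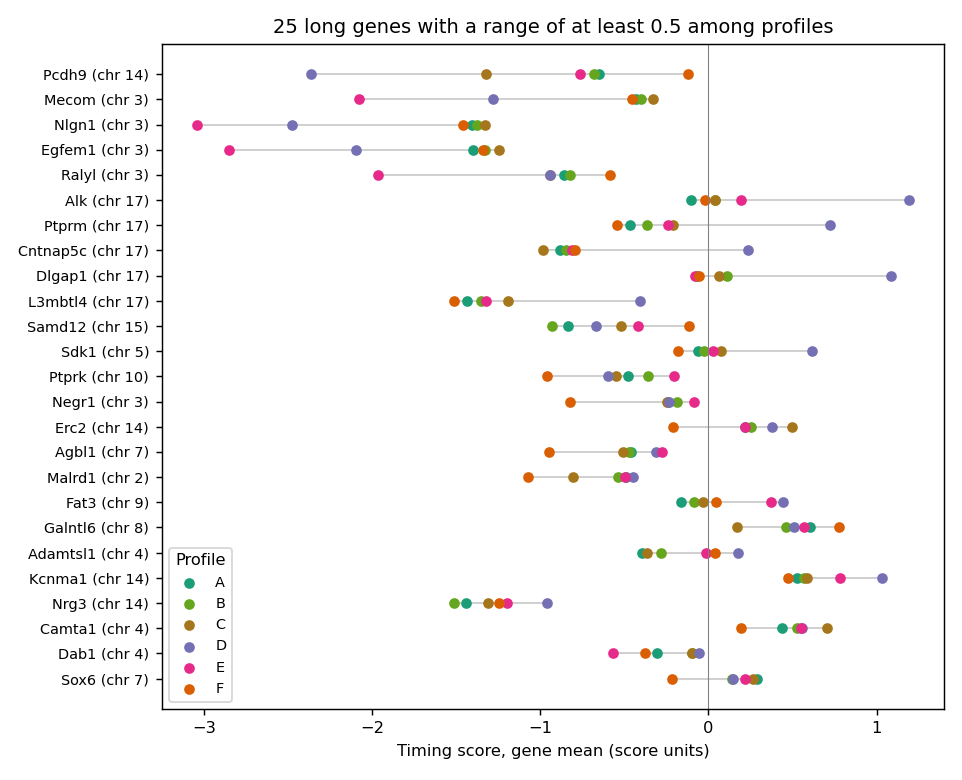
Gene mean timing score (x axis, score units) in each of profiles A to F (colours) for 25 of the 26 members with a range of at least 0.5 that are named here (rows, widest at the top), with a grey line from the lowest to the highest profile. Pcdh9 is lowest in D, the chromosome 3 genes Mecom, Nlgn1, Egfem1 and Ralyl are lowest in E, and the chromosome 17 genes shown are highest in D.

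Pcdh9, a protocadherin of neurons (chromosome 14, 93013700 to 93892834), had the widest range, with -0.65, -0.68, -1.32, -2.36, -0.76 and -0.12 in profiles A to F. Its raw level was 1.89, 1.89, 1.83, 1.65, 1.85 and 1.97, so that D stood at 87.0% of the median of the others. Mecom scored -0.43, -0.40, -0.33, -1.28, -2.08 and -0.45, and Nlgn1, a postsynaptic partner of neurexins, scored -1.40, -1.38, -1.33, -2.47, -3.04 and -1.46. In both, E was lowest and D next, and A, B, C and F lay close together. Relative to the median of the other profiles, the raw level in E was 85.7% at Mecom, 84.8% at Nlgn1, 86.5% at Egfem1 and 88.7% at Ralyl. Across the chromosome 17 members Alk, Ptprm, Dlgap1, L3mbtl4 and Cntnap5c, D exceeded the median of the others by 0.95 to 1.15 units, with raw levels of 107% to 108%. Alk, a receptor tyrosine kinase, scored -0.10, 0.04, 0.04, 1.19, 0.19 and -0.02.

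Much of these differences was also present in the DNA around the genes. Measured against its own flanks, the range among profiles had a median of 0.19 and reached 0.5 in 2 members. This range was not taken in tiles or other genes, so the narrowing is not read as a trait of long genes. Nlgn1 had 0.12, Mecom 0.25 and Ptprm 0.07 in this measure, while Pcdh9 kept 0.48 and Alk 0.38. The exceptions, both chosen after their values were seen, were Adamtsl1, a matrix protein gene on chromosome 4, at 0.65 and Cntnap2. Copy number of the stretch and time of replication cannot be told apart in a depth measure.

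Away from those chromosomes, the 8 members with a range of at least 0.5 were Samd12, Sdk1, Ptprk, Agbl1, Malrd1, Fat3, Galntl6 and Sox6, also named after their values were seen. F was the lowest profile in 5 of them. Ptprk scored -0.48, -0.36, -0.55, -0.59, -0.21 and -0.96, Agbl1 -0.46, -0.47, -0.51, -0.31, -0.27 and -0.95, and Malrd1 -0.49, -0.54, -0.81, -0.45, -0.50 and -1.07. In these 3 genes F was lower than every other profile on the score and on the raw level, where Ptprk stood at 1.85 in F and between 1.91 and 1.96 in the others. Sdk1, a synaptic adhesion gene, was highest in D at 0.62 and between -0.18 and 0.07 in the others. Samd12 was highest in F, at -0.11, and lowest in B, at -0.93.

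The 16 members without a full measurement were 8 on chromosome 12, 6 on chromosome 19 and 2 others. Chromosome 12 carried values in A, B, C and F only. Rgs6, a regulator of G-protein signalling, was early there at 0.50, 0.59, 0.92 and 1.95 in these profiles. The synaptic adhesion gene Nrxn3 scored -0.67, -0.60, -0.30 and 0.83, and Mdga2, a regulator of neuroligins, -1.32, -1.39, -1.09 and 0.01. F exceeded the median of A, B and C by 1.14 to 1.75 units in all 8, which also include Ptprn2, Npas3, Hdac9 and Dgkb. In the median of A, B and C, Rgs6 stood at 0.59 and Mdga2 was the latest at -1.32. The 6 members on chromosome 19 (Prkg1, Trpm3, Hpse2, Sorcs3, Sorcs1 and Atrnl1) had no value. Sox5, a transcription factor gene on chromosome 6, had no value in E and scored -0.16, -0.07, -0.03, 0.13 and -0.33 in A, B, C, D and F over each profile's own windows. Astn2, a neuronal migration gene on chromosome 4, had none in F and scored 0.82, 0.73, 0.63, 0.48 and 0.43 in A to E.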

How the data were processed

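Whole-genome sequencing of 6 samples (3 per genotype; DNBSEQ libraries, 150-base paired reads, aim of 30-fold coverage, per the labels' protocols) was deposited as 2 headerless tables over 237602 windows. The authors deposited a raw copy number estimate per window, near 2 in diploid DNA, and a smoothed timing score with mean 0 and SD 1 per column. Picard 2.23.9 and mm10 were named in the submitters' processing notes, and the series title names TIGER. The aligner, GC correction, filters and smoothing settings are not given in the sources used here. Scaling each column removes differences in amplitude between samples. Smoothing blurs steps and carries values into neighbouring windows. The depth per window is unknown.

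Columns were left unassigned, and all 6 value columns of both tables were used (0 left out). No test was run, since genotypes cannot be compared without column names and the other comparisons are given as a description. Chromosome 19 had no value, and chromosome 12 none in D and E. Gene positions came from RefSeq (GRCm38.p6), and strand and start sequences were matched by gene identifier for 156 of 193 members. Windows wholly inside a gene and valued in each profile were averaged (at least 20, and at least 3 per 100-kb end). Comparisons used all 18120 autosomal protein-coding genes with a valued window, or non-overlapping tiles of 750 kb or 1.25 Mb. Named genes were the 5 most extreme in level, slope, centre minus ends, range and length, 3 on either side of the length limit and the earliest and latest of each role list, and others named are examples of their lists. Values of a few such genes are not reported here, although the counts include them. Members, lists and rules were chosen with earlier results of these data known. Scripts were tested on simulated data. Python 3.11.15, numpy 2.4.6, pandas 2.3.3 and scipy 1.17.1 were used. Alternatives are given in the closing section.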

Additional observations from a re-analysis of the deposited data

How the results depend on the processing

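No result reversed. Of 63 values under other settings 47 stayed within the limit, as did 91 of 96 with a profile left out. The limit was the SD among profiles for levels and differences, and 1.5 times for shares of members. For the median range, which has no value per profile, it was the SD of the values with a profile left out. Leaving out the 3 overlapping members Gm38666, Gm38667 and Schip1 was added after the data were seen. So were the comparisons with late tiles and with the flanks of tiles. None of the 3 is in a role list, so the list medians without them could not move. Those medians count among the 47 and say nothing on stability. Genes of at least 750 kb, a longer subset, gave 73.4% below 0 in each profile, a median score of -0.81, a raw level of 1.85, centre minus ends of -0.14, a later centre in 21.5%, a slope of 0.62 and start minus far end of -0.16. Rescaled raw levels, in which the scatter of single windows enters the SD, gave centre minus ends of -0.12, a later centre in 16%, a slope of 0.65, start minus far end of -0.13, a range of 0.24, 10.2% of members at a range of 0.5 and list medians of -0.69 (adhesion), -0.96 (cadherins), -0.0831 (transcription) and 0.44 (blood or most cells). With ends of 200 kb, 8% had a later centre. Without chromosomes 3, 4, 6, 12, 14 and 17, start minus far end was -0.0947, and 6.72% of members reached a range of 0.5. With a profile left out, this share was 8.47% (without D) to 14.1%, start minus far end -0.0894 (without D) to -0.0283 (without B) and the median range 0.23 (without F) to 0.27. A range over fewer profiles can only be equal or narrower. The cause of the other moves was not tested. No paired analysis was possible because none of the columns has a replicate number. Depth limits could not be seen, since reads per window are unknown here.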
